A study of Mus musculus with 12 samples.

Results

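The 10 genes described here encode the E2F transcription factors E2f1 to E2f8 and the pocket proteins Rbl1 (p107) and Rbl2 (p130). They were chosen by name, through their gene IDs, and are 10 of the 53647 gene IDs with a value. All 10 reached at least 1 TPM (an abundance scaled to transcript length and to a fixed sum per library) in all 12 libraries and were tested among 15535 genes. RNA came from mouse E9.5 embryos and was measured by polyA-selected RNA-seq with 2 libraries in each of 6 groups. Embryos carry either the label p53 -/- (knockout) or the label wild type. Within each label they were untreated, or were taken 1 h or 3 h after X-rays to a total of 30 Gy, given to the pregnant mouse at 5 Gy/min. The study asks how p53 shapes the response of the embryo to ionizing radiation. The labels name neither the knockout allele nor the number of embryos or litters in a library, so the p-values below measure only the spread between these libraries. A whole embryo mixes many cell types, and in such bulk RNA fewer cells of a type and less RNA per cell cannot be told apart.

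E2F factors bind the promoters of genes for the G1/S transition and for DNA replication. E2F1, E2F2 and E2F3 mainly activate them. E2F4 and E2F5 lack strong activation of their own and hold genes silent together with the pocket proteins p107 and p130, in quiescent and arrested cells as part of the DREAM complex with the MuvB core. E2F6 represses without pocket proteins, within a variant Polycomb complex (PRC1.6). The atypical factors E2F7 and E2F8 bind DNA without a dimer partner and repress E2F targets late in S phase. Cyclin-dependent kinases phosphorylate pocket proteins and so free the E2Fs, and p21 (Cdkn1a), a p53 target, inhibits these kinases.

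Many E2f genes are E2F targets themselves, so promoter letters are shown for the called members that have an entry, E2f8 and E2f2. In this RefSeq table (GRCm38.p6) 8 of the 10 genes had a promoter, in 10 windows that run from 250 bases before to 50 bases after a start. E2f4 and E2f5 had no entry. An E2F core (TTGGCGC or TTCCCGC or TTGCCGC or TTCGCGC, on either strand) occurs in 9.57% of all 32851 promoter windows of this length. A CHR element, the site through which MuvB is recruited (TTTGAA or TTTAAA, on either strand), occurs in 27.6%. E2f8 held 1 E2F core, 111 to 105 bases before its start, and 1 CHR element on the minus strand, 20 to 15 bases before it. These 2 matches are in capitals in the 250 bases before the E2f8 start (minus strand, chr7:48881597-48881846).
E2f8: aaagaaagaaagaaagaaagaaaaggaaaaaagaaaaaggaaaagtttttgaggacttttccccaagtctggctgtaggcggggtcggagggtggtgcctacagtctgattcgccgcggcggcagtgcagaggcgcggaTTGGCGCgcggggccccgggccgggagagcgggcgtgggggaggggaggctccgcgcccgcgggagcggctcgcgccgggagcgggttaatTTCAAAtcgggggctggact
E2f2 held its 1 E2F core after the first of its 2 starts, at positions 41 to 47, in capitals in a stretch of 30 bases (plus strand, chr4:136172294-136172323).
E2f2: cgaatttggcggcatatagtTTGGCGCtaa
The second E2f2 window held a CHR element and no E2F core. Of the other members, E2f7 held 3 E2F cores, E2f3 held 2 in the window that also held 1 CHR element, and Rbl1 held 1, while the windows of E2f1, E2f6 and Rbl2 held none and the Rbl2 window held 2 CHR elements. The consensus of a p53 half-site (a full site holds a pair of them) was in 8.36% of all windows and in none of these. A match is a run of letters, not a measured site. The RefSeq starts may not be the starts used in these embryos. A window without a match therefore does not show that the gene lacks such a site.

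The genotype labels go against Trp53 and its target Cdkn1a. Trp53 was at 242.23 and 219.83 TPM in the 3 h libraries labelled knockout and at 93.73 and 68.03 TPM in those labelled wild type. In untreated libraries it was at 265.13 and 79.13 TPM under the knockout label and at 113.96 and 211.19 TPM under the wild-type label, so libraries numbered 2 stand in the opposite order to libraries numbered 1. Cdkn1a was at 5.38 to 6.88 TPM in all 4 untreated libraries. Under the knockout label it reached 79.35 and 76.17 TPM at 1 h and 498.77 and 444.33 TPM at 3 h, and the irradiated wild-type-labelled libraries held between 6.01 and 8.36 TPM. Groups are therefore named by their label throughout. Both 1 h libraries numbered 2 stood apart, with 18.4% and 18.5% of TPM in ribosomal protein genes against 10.6% to 12.6% in the other 10. The 3 h libraries labelled knockout also differed in cell type markers: the summed TPM of 6 primitive erythroid markers was 11059 and 13332 there against 1928 to 10562 elsewhere, that of 7 neuron markers was 49.2 and 50.1 against 67.2 to 211, and the neural factor Pax6 was at 5.37 and 4.01 TPM against 26.3 to 78.6. The 7 markers of visceral endoderm and yolk sac summed to 143 and 370 TPM there and to 13.6 to 204 TPM elsewhere, which overlapped. The summed TPM of 11 posterior Hox genes, which mark embryo stage, was 26.5 to 48.9 in untreated and 3 h libraries labelled knockout and 103 to 182 in the other 8. All 7 E9.5 embryo markers had TPM above 0 in all 12 libraries. At 3 h under the knockout label 3 of them, Pax6, Sox2 and Foxa2, fell with adjusted p below 0.05 in limma (5.87% of genes). Between labels at 3 h these 3 and Meox1 were lower at that threshold (5.07% of genes), and none was higher. Of 6 trophoblast markers Tpbpa was listed at 0 in all 12, but Ascl2 was at 4.01 and 2.47 TPM in the 3 h libraries labelled knockout and at 0.11 to 0.67 TPM elsewhere (1.66 on the log2 scale against untreated, adjusted p = 0.00394 with limma, and 1.69 between labels, 0.00417). The 6 summed to 22.4 and 25.3 TPM there and to 13.4 to 57.75 TPM elsewhere. Of 5 decidua markers Prl8a2 and Prl3c1 were listed at 0 in all 12, while Dcn, Bmp2 and Hand2, which embryos also express, brought the sum to 21.4 and 21.2 TPM there and to 22.5 to 36.8 TPM elsewhere. The part of these differences in the values below was not tested.

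By the median TPM over 12 libraries the order was E2f4 (122), E2f5 (52.4), E2f6 (49.5), E2f7 (27.4), E2f1 (27.0), E2f8 (24.6), E2f3 (24.6), Rbl1 (18.2), E2f2 (8.73) and Rbl2 (3.79). E2f4 was above E2f5, E2f6 above E2f7 and E2f3 above Rbl1 in 12 of 12 libraries. E2f7, E2f1, E2f8 and E2f3 were not separated: each was above the next of them in 8, 5 and 7 of 12 libraries. E2f5 and E2f6 also crossed, with E2f5 higher in 10 of 12. Rbl1 was above E2f2 in 11 and E2f2 above Rbl2 in 10 of 12. The highest library was 1.6 times the lowest for E2f1, 2.60 times for E2f2 and 5.37 times for Rbl2. Within the groups, E2f3, E2f5, E2f6 and Rbl1 were higher in library 2 than in library 1 in 6 of 6 groups, and Rbl2 was lower in library 2 in 6 of 6.

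**Figure D1:**
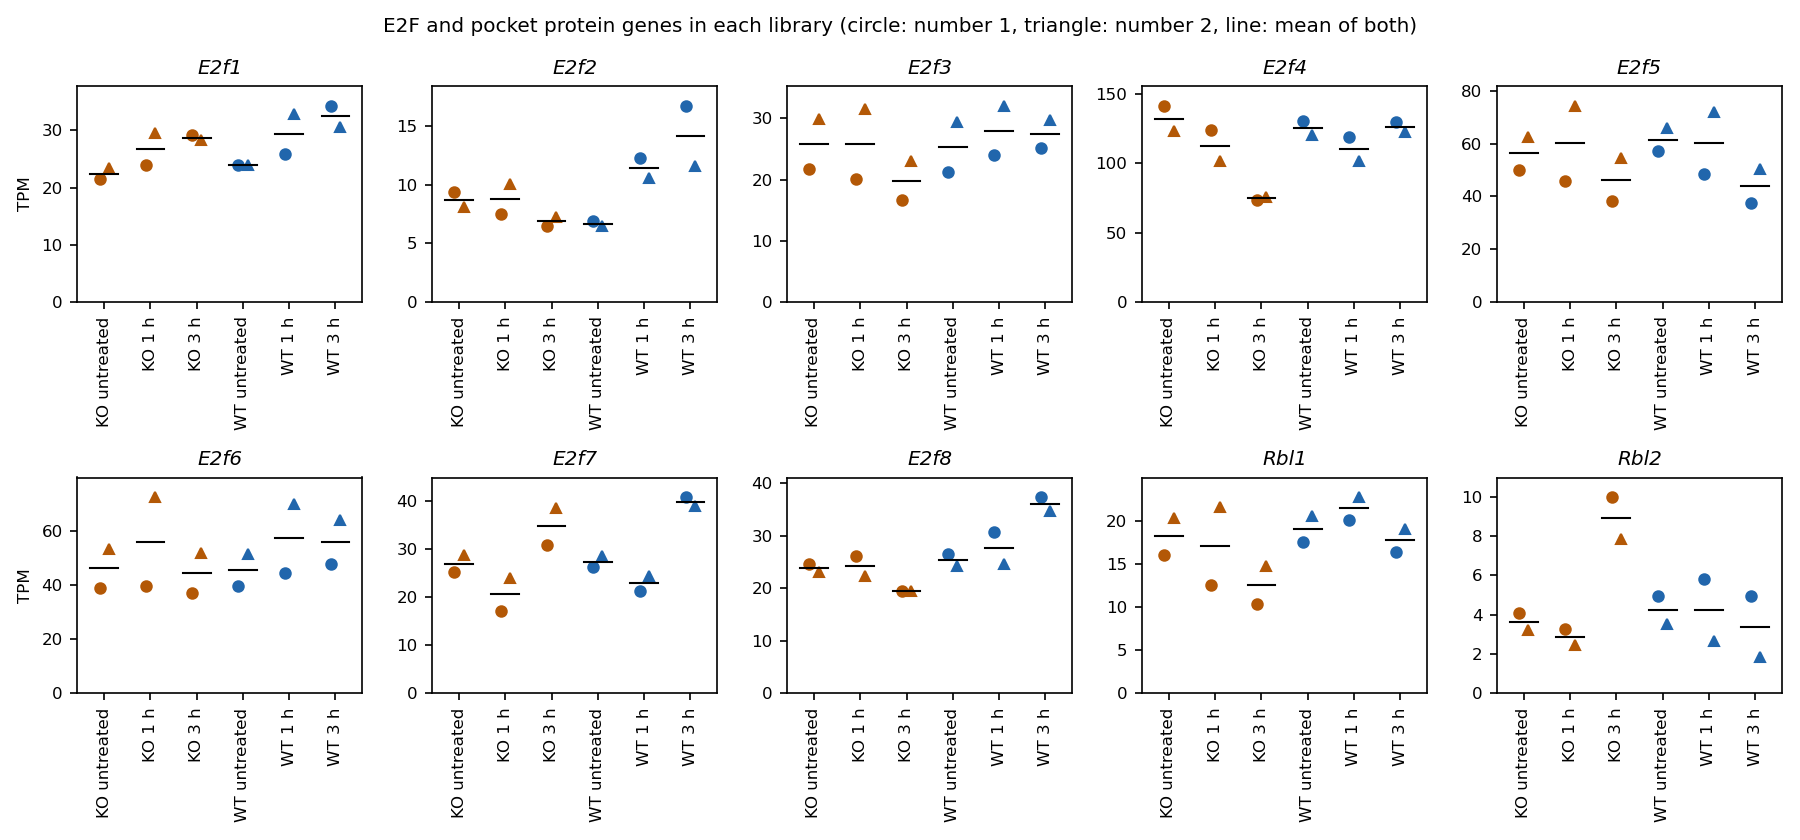
TPM (linear axis from 0) of the 10 genes in 12 libraries, by label and time; circles are libraries numbered 1, triangles libraries numbered 2, and lines the mean of both. E2f4 was lowest and Rbl2 highest in the 3 h libraries labelled knockout. The means of E2f1, E2f2, E2f7 and E2f8 were highest in the 3 h libraries labelled wild type.

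At 3 h E2f4, E2f2 and E2f8 were the members that passed the main test, which had no replicate block. In embryos labelled knockout E2f4 fell, and no other member passed that test there. Against the 3 h libraries labelled wild type, E2f2, E2f4 and E2f8 were lower. Differences were tested with limma on log2(TPM + 1), two-sided, with Benjamini-Hochberg adjustment over all tested genes, and called means an adjusted p below 0.05. For 3 h against untreated under the knockout label 1 of 10 members was called, against 12.1% of all tested genes (6.25% called higher and 5.87% called lower). For the 3 h libraries labelled knockout against those labelled wild type 3 of 10 members were called, all lower, against 10.3% of all genes (5.25% higher and 5.07% lower). Under the wild-type label 0 of 10 members and 0% of genes were called at 3 h with limma, with 4 members and 524 genes at an unadjusted p under 0.05. Libraries that share a replicate number also share deviations, and limma with this number as a block called 4 of 10 members in the first comparison (29.2% of all genes) and 6 of 10 in the second (28.1%). E2f3, Rbl1 and Rbl2 were called only with the block, in both comparisons. For Rbl2 the adjusted p with the block was 0.00933 in the first and 0.00562 in the second. The block called no member at 3 h under the wild-type label (0.154% of genes). With median-of-ratios size factors the share of calls that were higher went from 51.6% to 61.9% in the first comparison and from 50.8% to 66.9% in the second, and in the second the median difference over all tested genes went from -0.16 to -0.01.

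**Figure D2:**
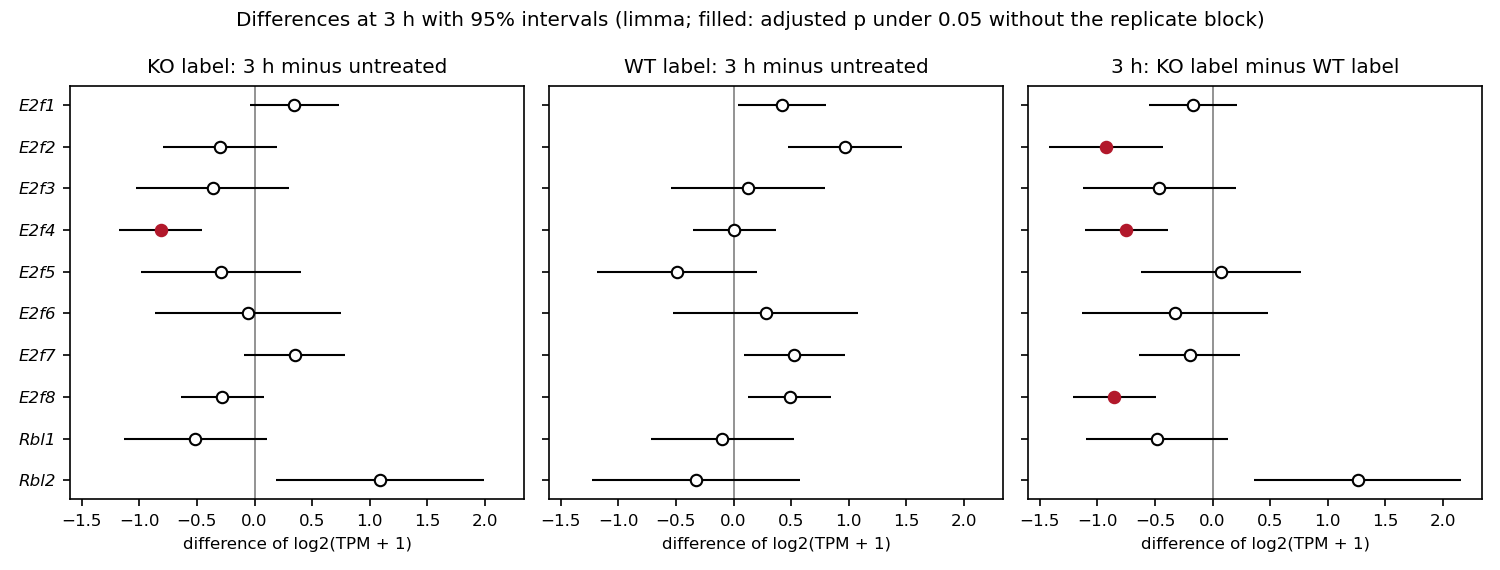
Differences of log2(TPM + 1) at 3 h for the 10 genes, with 95% intervals from limma without the replicate block, for 3 h minus untreated under each label and for the knockout minus the wild-type label; filled points have an adjusted p under 0.05. The filled points are E2f4 in the left panel and E2f2, E2f4 and E2f8 in the right panel, all below 0.

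Among the activators, E2f2 differed most between the labels at 3 h. In the libraries labelled wild type it was at 6.89 and 6.45 TPM untreated, 12.26 and 10.62 at 1 h, and 16.78 and 11.6 at 3 h. Both irradiated groups lay above the untreated one without overlap. Under the knockout label E2f2 was at 9.36 and 8.09 TPM untreated, 7.47 and 10.09 at 1 h, and 6.49 and 7.27 at 3 h, where both libraries lay below both untreated ones. At 3 h the difference between the labels was -0.93 ± 0.217 on the log2 scale (SE, 2 libraries against 2; adjusted p = 0.0301 with limma), and within library numbers 1 and 2 it was -1.25 and -0.61. The call was lost with median-of-ratios size factors (-0.78, adjusted p = 0.0645), with quantile normalization (0.0503) and in a fit of only those groups (0.118). It was also lost without either 3 h library labelled knockout (0.171 and 0.0983), without 3 h library 1 labelled wild type (-0.68, adjusted p = 0.208), without either untreated library labelled wild type (0.0544 for each) and without both untreated libraries numbered 2 (0.0855). Within the wild-type label the difference from untreated was 0.97 ± 0.217 at 3 h (SE; adjusted p = 0.668 with limma) and 0.70 at 1 h (adjusted p = 1), neither called.

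E2f1, the activator best known for also driving cell death after DNA damage, was higher at 3 h under both labels. It was at 21.41 and 23.43 TPM in untreated and at 29.19 and 28.29 TPM in 3 h libraries labelled knockout. Wild-type-labelled libraries held 23.97 and 24.03 TPM untreated and 34.35 and 30.67 TPM at 3 h. The groups did not overlap under either label, with differences of 0.35 (adjusted p = 0.250 with limma) and 0.42 (adjusted p = 1) that did not pass the test. The difference between these responses was -0.07, with a 95% interval of -0.62 to 0.47. E2f3 was at 16.63 and 23.03 TPM in the 3 h libraries labelled knockout and at 25.19 and 29.71 TPM in those labelled wild type. Its untreated libraries were at 21.77 and 29.85 TPM under the knockout label and at 21.2 and 29.37 TPM under the wild-type label. The 3 h difference between labels was -0.46 (adjusted p = 0.389 with limma, 0.0165 with the replicate block), and that from untreated under the knockout label was -0.36 (adjusted p = 0.523, 0.0383 with the block).

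E2f4, the most abundant member and the E2F of the DREAM complex, fell in embryos labelled knockout. Its libraries were at 141.85 and 123.14 TPM untreated, 123.94 and 101.88 at 1 h, and 73.53 and 75.91 at 3 h. Both 3 h values were below those of the other 10 libraries. In wild-type-labelled libraries E2f4 was at 130.72 and 120.77 TPM untreated, 118.9 and 101.88 at 1 h, and 130.01 and 122.46 at 3 h, where the groups overlapped. The difference from untreated was -0.81 ± 0.159 under the knockout label (SE, 2 against 2; adjusted p = 0.0122 with limma) and 0.01 under the wild-type label, with a 95% interval of -0.36 to 0.37. Between the labels at 3 h it was -0.75 ± 0.159 (SE; adjusted p = 0.0203 with limma). E2f4 was lower in 2 of 2 libraries by number in both comparisons. With median-of-ratios size factors these differences were -0.70 and -0.58 and were not called (adjusted p = 0.0911 and 0.172). Neither were they called in fits of only the groups compared (adjusted p = 0.0880 and 0.0709) or without either 3 h library labelled knockout (adjusted p from 0.0602 to 0.12). The call against untreated was also lost without knockout-labelled untreated library 1 (adjusted p = 0.0919), the call between labels also without either 3 h library labelled wild type (0.136 and 0.0944), and both without both untreated libraries numbered 2 (0.0806 and 0.0665).

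E2f5, the second E2F that works with p107 and p130, overlapped between the labels at 3 h. It was at 50.13 and 62.61 TPM in untreated and 38.08 and 54.43 TPM in 3 h libraries labelled knockout. Libraries labelled wild type were at 57.15 and 65.81 TPM untreated and at 37.33 and 50.27 TPM at 3 h, lower in both libraries without overlap (-0.49, adjusted p = 1 with limma). The 3 h difference between labels was 0.07, with a 95% interval of -0.62 to 0.76. Its exons overlap those of 1810022K09Rik on the opposite strand, which was at 241 to 364 TPM. The strand setting of the quantification is not given in the sources used here, so reads of the overlap cannot be told apart.

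The atypical repressors E2f7 and E2f8, which often act as a pair, lay on opposite sides of untreated at 3 h under the knockout label. E2f8 was at 24.64 and 23.11 TPM untreated, 26.06 and 22.42 at 1 h, and 19.41 and 19.51 at 3 h under the knockout label. With the wild-type label E2f8 was at 26.55 and 24.29 TPM untreated, 30.79 and 24.55 at 1 h, and 37.35 and 34.73 at 3 h. Its 3 h libraries thus lay below untreated under the knockout label and above untreated under the wild-type label, without overlap. The 3 h difference between labels was -0.86 ± 0.158 (SE, 2 against 2; adjusted p = 0.0113 with limma), lower in 2 of 2 libraries by number. It lost its call with size factors (-0.69, adjusted p = 0.0870), with quantile normalization (-0.72, 0.0666), in a fit of only those groups (0.0632) and without any single 3 h library (0.0596 to 0.0938). Within the labels the differences from untreated were -0.28 (adjusted p = 0.324 with limma) and 0.49 (adjusted p = 1).

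E2f7, which p53 is known to induce in human cells, was higher at 3 h under both labels. Under the knockout label it was at 25.17 and 28.69 TPM untreated, 17.18 and 23.88 at 1 h, and 30.87 and 38.59 at 3 h. The wild-type-labelled values were 26.23 and 28.48 TPM untreated, 21.34 and 24.43 TPM at 1 h, and 40.75 and 38.89 at 3 h. Under both labels the 1 h libraries lay below and the 3 h libraries above the untreated ones, without overlap. The 3 h differences were 0.35 (adjusted p = 0.313 with limma) and 0.53 (adjusted p = 1). The first was called with size factors (0.46, adjusted p = 0.0463) and with quantile normalization (0.48, 0.0403). At 1 h the differences were -0.39 and -0.25, not called (adjusted p = 0.608 and 1). The 3 h difference between labels was -0.20, with a 95% interval of -0.64 to 0.24. E2f6, the Polycomb-linked repressor, had 3 h libraries at 36.87 and 51.86 TPM labelled knockout and at 47.55 and 63.78 TPM labelled wild type, which overlapped, with a difference of -0.33 and a 95% interval of -1.13 to 0.48.

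The pocket proteins lay on opposite sides of untreated in the 3 h libraries labelled knockout. Rbl2, whose product p130 dominates in resting cells, was at 9.99 and 7.85 TPM there and at 1.86 to 5.81 TPM in the other 10 libraries. It was at 4.07 and 3.22 TPM untreated and 3.28 and 2.44 TPM at 1 h under the knockout label, and at 4.93 and 3.51, then 5.81 and 2.67, then 4.93 and 1.86 TPM under the wild-type label. The 3 h difference between labels was 1.26 ± 0.396 (SE; adjusted p = 0.0838 with limma, 0.00562 with the replicate block), and that from untreated was 1.09 (adjusted p = 0.121, 0.00933 with the block). Both were above 0 in 2 of 2 libraries by number. At this low level the log2(TPM + 1) scale understates the change. Rbl2 overlaps Aktip on the opposite strand. At 3 h Aktip was at 18.82 and 25.04 TPM labelled knockout and at 22.54 and 27.5 TPM labelled wild type. The difference was -0.19 (adjusted p = 0.756 with limma). As for E2f5, reads of the overlap cannot be told apart, and their part in the Rbl2 values was not tested.

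Rbl1, whose product p107 accumulates in cycling cells, was at 15.99 and 20.34 TPM untreated, 12.58 and 21.57 at 1 h, and 10.29 and 14.77 at 3 h under the knockout label. Rbl1 in libraries labelled wild type was at 17.48 and 20.51 TPM untreated, 20.09 and 22.71 at 1 h, and 16.41 and 18.98 at 3 h. The 3 h libraries labelled knockout were below both untreated libraries and both 3 h libraries labelled wild type. These differences were -0.51 (adjusted p = 0.293 with limma, 0.0366 with the block) and -0.48 (adjusted p = 0.329, 0.0467 with the block).

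The balance within the family set the 3 h libraries labelled knockout apart in some measures and not in others. E2f4 made up 29.3% and 25.4% of the summed TPM of the 8 E2f genes in the 3 h libraries labelled knockout and 35.2% and 32.0% in those labelled wild type. The 1 h libraries numbered 2 reached 27.8% and 27.7%, so this share overlapped with other groups. The ratio of E2f7 to E2f8 was 1.59 and 1.98 in the 3 h libraries labelled knockout and 0.659 to 1.24 in the other 10. The ratio of Rbl1 to Rbl2 was 1.03 and 1.88 there and 3.33 to 10.2 elsewhere. Both ratios therefore set this group apart without overlap, and as values within a library they do not depend on its scaling. They were computed after the levels had been seen and were not tested: with 2 libraries against 2 an exact two-sided permutation test cannot go below 0.333.

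**Figure D3:**
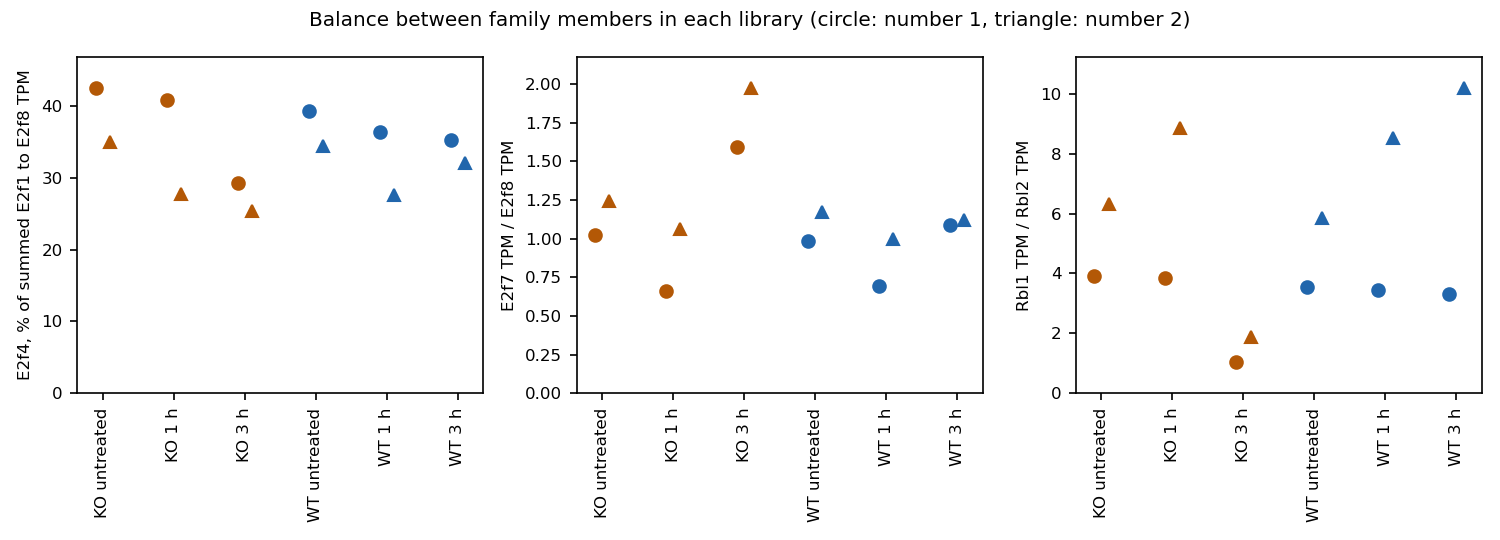
Share of E2f4 in the summed TPM of E2f1 to E2f8 (percent), and ratios of TPM of E2f7 to E2f8 and of Rbl1 to Rbl2, in each of the 12 libraries by label and time (axes from 0; circles are numbered 1, triangles 2). The 3 h libraries labelled knockout have the highest E2f7 to E2f8 ratios, 1.59 and 1.98, and the lowest Rbl1 to Rbl2 ratios, 1.03 and 1.88.

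Whether the 3 h response itself differed between labels was tested as a difference of differences. With limma 0 of 10 members and 3.45% of all genes were called, and 4 members and 2402 of 15535 genes had an unadjusted p under 0.05. The fit with the block called 4 members and 13.4% of genes. The response under the knockout label minus that under the wild-type label was -1.27 for E2f2 (adjusted p = 0.0676, 0.0260 with the block), -0.82 for E2f4 (0.103, 0.00972 with the block) and -0.77 for E2f8 (0.124, 0.0150 with the block). For Rbl2 it was 1.42 (0.266, 0.0271 with the block).

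With limma no member was called at 1 h under the knockout label (0.103% of genes called, 0 members at an unadjusted p under 0.05) or the wild-type label (0% of genes, 1 member). None was called between labels in untreated libraries (0.0193% of genes, 0 members) or at 1 h (0.0386%, 0 members), or in the difference of the 1 h responses (0.00644%, 0 members). The member with an unadjusted p under 0.05 was E2f2 at 1 h under the wild-type label, where 618 of 15535 genes had one.

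Groups of 2 libraries often fail to overlap, so counts of such members were set beside all genes. At 3 h under the wild-type label 4 of 10 members (E2f1, E2f2, E2f7 and E2f8) were higher in both libraries, against 17.3% of genes, and 1 (E2f5) was lower, against 13.1%. Under the knockout label 3 of 10 were higher (E2f1, E2f7 and Rbl2), against 19%, and 4 lower (E2f2, E2f4, E2f8 and Rbl1), against 31.6%. Between labels at 3 h 1 was higher (Rbl2), against 18.1%, and 7 lower, against 36.2%. At 1 h 1 member was higher (E2f1, 11.3% of genes) and 1 lower (E2f7, 20.3%) under the knockout label, and 2 higher (E2f1 and E2f2, 10.6%) and 2 lower (E2f4 and E2f7, 16%) under the wild-type label.

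Genes of G1/S and replication that E2Fs drive lay above untreated at 3 h under the wild-type label, though none passed the test. Of 28 such genes 28 had a difference above 0, and 17 were higher in both libraries, against 17.3% of all genes. The median difference was 0.36 against 0.02 over all tested genes. With limma 0 were called and 10 had an unadjusted p under 0.05, against 524 of 15535 genes, and the block called 0. Under the knockout label the median was -0.15 against -0.12 over all genes. There 1 of 28 genes was called higher and 1 lower, 3 and 3 with the block, against 12.1% and 29.2% of all genes called in either direction. Ccne1 (cyclin E1, which activates CDK2) fell by 0.85 (adjusted p = 0.0132 with limma). Between labels at 3 h 3 of 28 were lower and none higher, against 5.07% of all genes called lower, and 14 were lower with the block, against 18.5%. The 3 were Ccne1, at 51.74 and 52.21 TPM labelled knockout and 147.12 and 126.21 TPM labelled wild type (-1.37, adjusted p = 0.00147 with limma), the histone mRNA binding protein Slbp (-0.76, 0.00866) and Ccne2 (-0.87, 0.0365). The 3 h response of Ccne1 differed between labels by -1.32 (adjusted p = 0.0209 with limma) and was the 1 gene of this list called in that test with limma (0.856% of all genes called lower), while the block called 10 lower (7.39%).

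Genes of G2 and mitosis that DREAM holds silent in resting cells were below untreated at 3 h in 22 of 22 genes under the knockout label and 21 of 22 under the wild-type label. Under the knockout label 11 fell (5.87% of all genes), and 20 with the block (18.1%), with a median of -0.99 against -0.12 over all genes. Plk1, the polo-like kinase of mitotic entry, was at 171.44 and 190.04 TPM untreated and 36.17 and 40.81 TPM at 3 h (-2.20, adjusted p = 5.79e-05 with limma). Under the wild-type label 0 of 22 were called with limma, and 15 had an unadjusted p under 0.05, against 524 of 15535 genes. With the block 10 fell (0.148% of all genes), and the median was -0.79 against 0.02. Plk1 was at 165.01 and 190.85 TPM there untreated and at 56.73 and 62.32 TPM at 3 h (-1.56, adjusted p = 0.0508 with limma, 0.00299 with the block). Between labels at 3 h 5 of 22 were lower, Nek2, Kif2c, Cenpf, Prc1 and Plk1, and none higher (5.07% of all genes called lower), while the block called 11 lower (18.5%) and 2 higher (Cdc20 and Cenpe). Cdc20 and Cenpe are named after their values were seen. In the difference of the 3 h responses 0 of 22 were called with limma (3.45% of all genes). An unadjusted p under 0.05 was found for 7, against 2402 of 15535 genes. The block called 7 lower and 1 higher, against 13.4% of all genes called in either direction.

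**Figure D4:**
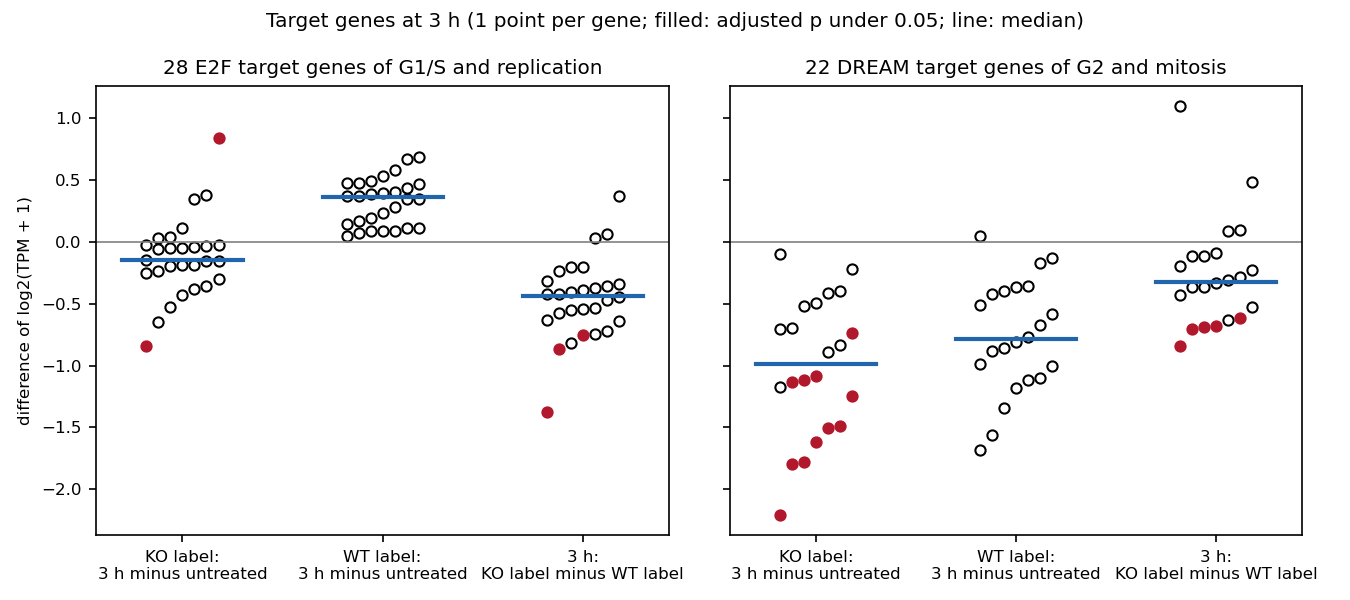
Differences of log2(TPM + 1) at 3 h for 28 E2F target genes of G1/S and replication (left) and 22 DREAM target genes of G2 and mitosis (right), 1 point per gene and the median as a line; filled points have an adjusted p under 0.05 with limma. The medians of the E2F targets are -0.15 (knockout label), 0.36 (wild-type label) and -0.44 (between labels), and those of the DREAM targets -0.99, -0.79 and -0.32.

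The partners of these proteins were read from lists as well. Of all tested genes limma called 5.87% lower at 3 h under the knockout label, 5.07% between labels and 0.856% in the response difference. With the block these shares were 18.1%, 18.5% and 7.39%. Of 6 measured genes of the MuvB core and its activating partners, Foxm1, the mitotic transcription factor, was called at 3 h under the knockout label (-0.96, adjusted p = 0.0200 with limma), and with the block the MuvB subunit Lin9 was called as well (-0.47, 0.0153). Between labels at 3 h Mybl2 (B-MYB; -0.65, 0.0229), Foxm1 (-0.81, 0.0422) and Lin9 (-0.58, 0.0444) were lower. In the difference of the 3 h responses limma called 0 of 6, with 3 at an unadjusted p under 0.05 (2402 of 15535 genes). The block called Mybl2, Foxm1 and Lin9 lower there. Of the dimer partners, Tfdp1 and Tfdp2, neither was called in any comparison at 3 h with limma, while with the block Tfdp2 was lower against untreated (-0.50, adjusted p = 0.0318) and between labels (-0.78, 0.00577). Of 9 PRC1.6 genes, partners of E2F6, only L3mbtl2 was called, lower at 3 h under the knockout label (-0.65, 0.0266) and between labels (-0.65, 0.0315), and the block called 6 lower in each and 3 in the difference of the 3 h responses.

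Of 10 cyclins, kinases and ubiquitin ligase parts that act on pocket proteins and E2Fs, Fbxw7, the ligase subunit that targets cyclin E, was at 46.94 and 47.41 TPM in the 3 h libraries labelled knockout and at 9.65 to 15.36 TPM in the other 10. It rose by 1.74 on the log2 scale (adjusted p = 0.000575 with limma). Fzr1, an activator of the anaphase-promoting complex, fell by 1.31 (0.0161). The block called 1 higher and 4 lower of the 10, against 29.2% of all genes called in either direction (12.1% with limma). Between labels at 3 h Ccnf (cyclin F, which directs the breakdown of E2F proteins) was higher by 1.03 (adjusted p = 0.00625), Fbxw7 higher by 1.56 (0.00120) and Skp2, an E2F target that marks p130 for breakdown, lower (-0.74, 0.00702), and the block called 2 higher and 5 lower. In the difference of the 3 h responses limma called 1 higher (Fbxw7) and the block 2 higher and 4 lower. Over all genes the shares called between labels at 3 h were 10.3% with limma and 28.1% with the block. For the difference of responses they were 3.45% and 13.4%.

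Genes whose levels followed the called members most closely were found among 9991 genes, by Pearson's r of log2(TPM + 1) over the 12 libraries. These libraries share groups and numbers, so r is a description. For E2f2 they were Ccne2 (0.907), Nsdhl (0.885) and Insig1 (0.870). For E2f4 they were Nop2 (0.983), Pax6 (0.979) and B3gnt7 (0.978), and for E2f8 they included Slbp (0.944) and Skp2 (0.929). Ccne2 was at 91.26 and 64.77 TPM in the 3 h libraries labelled wild type and at 41.08 to 62.52 TPM in the other 10. Nop2 was at 49.13 and 48.71 TPM in the 3 h libraries labelled knockout and at 76.4 to 106.58 TPM elsewhere. Skp2 was at 113.93 and 109.7 TPM in the 3 h libraries labelled wild type, 66.88 and 66.61 TPM in those labelled knockout, and 83.26 to 90.77 TPM in the rest.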

How the data were processed

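RNA-seq values for 12 libraries were deposited by the authors as TPM per gene, so each library sums to a fixed total, its depth is unknown here, and no count test was run. Per the submitters' processing notes, STAR 2.7.3a and RSEM 1.3.3 were used, as were HTSeq 0.12.3, R 4.3.3 and DESeq2 1.42.1, with the build GRCm39 and no role given for each. The annotation and the strand setting are not stated in the labels. Symbols were taken by gene ID from an annotation of GRCm38, which matched 97.1% of IDs.

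A gene was tested if 2 or more libraries reached 1 TPM. On log2(TPM + 1), limma 3.58.1 estimated 1 mean for each group and a trended spread shared by all libraries, on 6 residual degrees of freedom (5 with the block). Times were compared within labels, labels within times, and responses between labels. The fit was tested on simulated data drawn independently for each library. That test therefore does not cover the deviations that libraries of the same replicate number share. Python 3.11.15 with matplotlib 3.10.9 drew the figures.

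Replicate numbers come from the labels. Deviations from the group means correlated between same-numbered libraries at 0.327 to 0.796 across genes in each of 15 pairs of groups. The block is therefore given wherever it changed the call of a member or a count of the pathway lists at 3 h.

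The members and gene lists were chosen with earlier results of these data known. Named were the 10 members, Trp53 and Cdkn1a, up to 4 called genes with the smallest p from each list and comparison (up to 2 where none was called), and for each called member the 3 genes of mean TPM at least 5 with the highest correlation, clone-like names left out. Some genes that this rule names are not reported here. Alternatives tried were no filter, a pseudocount of 0.1, other scalings (size factors or quantiles), a fit of only the groups in a comparison, no trend, the block, each library left out in turn and, added after seeing the data, both libraries numbered 2 left out at 1 h or untreated.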

Additional observations from a re-analysis of the deposited data

Results flagged for a closer look

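The 3 h responses of some genes differed between the labels, as the response under the knockout label minus that under the wild-type label on the log2(TPM + 1) scale. E2f2 (-1.27) and E2f8 (-0.77) stand here because both their 3 h libraries lay below untreated under one label and above it under the other; the test of the difference gave adjusted p of 0.0676 and 0.124 with limma, 0.0260 and 0.0150 with the replicate block. The test itself called Ccne1 (-1.32, adjusted p = 0.0209), Fbxw7 (1.48, adjusted p = 0.0190), Cdkn1a (6.00, adjusted p = 4.66e-05) and Mdm2, the ligase that targets p53 (3.16, adjusted p = 0.000364). The genotype labels go against Trp53 and Cdkn1a, as described above. The 3 h libraries labelled knockout also differed in erythroid and neuron markers. Posterior Hox genes summed lower in untreated and 3 h libraries labelled knockout than in all other libraries. The part of these marker and Hox differences in the responses was not tested.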

How the results depend on the processing

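Directions of the called members E2f2, E2f4 and E2f8 held in all 21 alternatives, and their calls did not: E2f4 against untreated at 3 h under the knockout label was called in 15 of 21 (adjusted p from 0.000856 to 0.0919), and between labels at 3 h E2f4 and E2f8 were called in 14 and E2f2 in 12 of 21. Members called at 3 h under the knockout label numbered 1, but 4 with the replicate block, 2 with quantile normalization, 0 with only the groups compared or without both untreated libraries numbered 2, and 0 to 1 with single libraries left out. Members called between labels at 3 h numbered 3, but 6 with the replicate block, 1 with quantile normalization or without both untreated libraries numbered 2, 0 with size factors or only the groups compared, and 0 to 3 with single libraries left out. In the difference of the 3 h responses the block called 4 members instead of 0. In the other comparisons 0 members were called in every alternative, and with 1 library left in a group that library is assumed to vary like the others.

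Counts over all tested genes moved more. With the replicate block they were 142 at 1 h and 4534 at 3 h under the knockout label, 24 at 3 h under the wild-type label, 12 at 1 h and 4371 at 3 h between labels, and 8 and 2078 for the difference of responses at 1 h and 3 h. With only the groups compared they were 466 at 3 h under the knockout label and 610 at 3 h between labels, and 0 at 1 h under the knockout label, between labels untreated and at 1 h, and for the difference at 1 h. Without both untreated libraries numbered 2 they were 643 and 0 at 3 h and 1 h under the knockout label, 1 at 3 h under the wild-type label, 0, 3 and 955 between labels untreated, at 1 h and at 3 h, and 0 and 85 for the differences at 1 h and 3 h. Without both 1 h libraries numbered 2 they were 5 at 1 h under the knockout label, 2 and 1 at 1 h and 3 h under the wild-type label, 0 and 1 between labels untreated and at 1 h, and 0 for the difference at 1 h. No filter gave 4 and 15 at 1 h and 3 h under the wild-type label and 4 for the difference at 1 h. For the wild-type label at 3 h size factors gave 4 and quantiles 3, and for the difference at 1 h each gave 3. No trend gave 1 between untreated labels, and a pseudocount of 0.1 gave 2 between labels at 1 h. With single libraries left out the counts ran from 2 to 15 and 820 to 1935 under the knockout label (1 h, 3 h), 0 to 2 and 0 to 1 under the wild-type label, 0 to 2, 1 to 5 and 585 to 1650 between labels (untreated, 1 h, 3 h), and 0 to 4 and 224 to 484 for the differences.

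Signs changed for 8 results of single members, none of them called in either fit, whose size with all libraries was at most 0.33. E2f6 under the knockout label at 3 h went from -0.057 to 0.057 with size factors, 0.091 with quantiles and 0.17 without both untreated libraries numbered 2 (-0.30 to 0.18 with single libraries left out). Under the wild-type label at 3 h E2f4 went from 0.0060 to -0.023 with size factors and -0.051 without both untreated libraries numbered 2 (-0.051 to 0.063), Rbl1 from -0.10 to 0.013 without the latter (-0.21 to 0.013), E2f3 ranged from -0.10 to 0.35 and Rbl2, at -0.33 with all libraries, from -0.85 to 0.20 (0.20 without wild-type-labelled 3 h library 2). E2f5 between labels at 3 h ranged from -0.18 to 0.32 and in the difference of responses from -0.054 to 0.45, and E2f1 in that difference was 0.067 with size factors, 0.057 with quantiles and -0.15 to 0.0047 with single libraries left out. The cause was not tested.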
